A study of Homo sapiens with 12 samples.

Results

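The genes described here encode ATP-binding cassette (ABC) proteins, named by a subfamily letter from A to G and a number. They were taken by symbol. A probe set of the array, the group of short probes summarised into 1 value, was used where the platform annotation named exactly 1 gene for it, that symbol was ABC followed by a letter from A to G and a number, and the gene was protein-coding in the RefSeq gene table. This gave 42 genes of the 18377 tested, measured by 46 probe sets. ABCF1 and ABCB8 had 3 probe sets each, which were averaged, and 40 genes had 1. The pseudogenes ABCA11P, ABCA15P and ABCC13 were left out. No gene was removed for low values, because the deposited values hold no level.

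The cells were HT29, an established human colon adenocarcinoma line, grown as plated cultures in F12 medium with fetal bovine serum. The control group was untreated and is taken as 0 h, and the 3 other groups received 70 nM methotrexate, an antifolate, for 8, 24 or 48 h. Each group held 3 arrays, called biological replicates in the labels. Nothing else in the labels says how these cultures were separated, and p-values measure the spread between these arrays. Methotrexate and time in culture cannot be told apart, since every array at a later time came from treated cells.

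ABC proteins bind and hydrolyse ATP through paired nucleotide-binding domains, and most members couple this to moving a substrate across a membrane. Many members export drugs and their conjugates, including methotrexate and other antifolates, while others move cholesterol, phospholipids, heme precursors, peptides or very long chain fatty acids. In the intestinal epithelium, ABCG2 and ABCC2 face the gut lumen, ABCC3 faces the blood, and ABCA1 passes cholesterol to apolipoprotein A-I. ABCE1 and the ABCF proteins have no membrane part and act at the ribosome.

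Each value below is a log2 ratio to the median of the 3 control arrays for that gene, so the middle control array reads 0.00 where a gene has 1 probe set. Only differences between groups can be read from it, and levels of different genes cannot be compared. A log2 fold change is the difference between group means, with limma's moderated standard error (SE) and n = 3 per group. A gene was called, and is said to have risen or fallen, where limma's adjusted p (Benjamini-Hochberg over all 18377 genes) was under 0.05. The median SD of the ABC genes between replicates was 0.07 over the 4 groups, and the median SE of a difference was 0.06. The same 3 control arrays serve each comparison with control. Likewise the 8 h arrays also serve the comparison of 24 h with 8 h, and the 24 h arrays that of 48 h with 24 h. A rise and the fall that follows it are therefore not independent results. Replicate 3 of the 48 h group lay farther from its group than other arrays, with a root mean square distance over all genes of 0.208 from replicate 1 and 0.184 from replicate 2, against 0.094 to 0.143 for the other replicate pairs. Absolute levels of colon epithelial markers could not be read. Of 12 such markers 1 rose and 2 fell at 8 h (25%, against 24.2% of all genes). At 24 h 2 rose and 1 fell (25% against 16.7%), and at 48 h 1 rose and 1 fell (16.7% against 25.3%). Among them LGALS4 was lower at all 3 times (-0.64 at 8 h, SE 0.06), KRT20 was higher by 0.53 (SE 0.05) and KRT19 by 0.41 (SE 0.08) at 24 h. Of 10 fibroblast markers 0 were called at any time, and of 11 leukocyte and endothelial markers CD68, a lysosomal protein, was called alone, higher by 1.08 (SE 0.06) at 48 h.

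After 8 h with methotrexate, 10 of the 42 ABC genes were higher than control and 4 were lower, 33.3% in all, where 24.2% of all genes were called. ABCG1 and ABCA1, which export sterols, had the largest falls, and the drug exporter ABCG2 had the largest rise. After 24 h, 4 were higher and 4 lower (19% against 16.7% of all genes), and after 48 h 10 were higher and 5 lower (35.7% against 25.3%). Between 8 and 24 h, 2 rose and 8 fell (23.8% against 19.4%), and between 24 and 48 h, 2 rose and 3 fell (11.9% against 10.1%). The moderated F test of limma, over all 4 groups, called 20 of the 42 genes, 47.6% against 38.8% of all genes. Among all genes 12.1% rose and 12% fell at 8 h, 8.69% and 8.02% at 24 h, 13% and 12.3% at 48 h, 9.99% and 9.4% from 8 to 24 h, and 5.26% and 4.86% from 24 to 48 h. The 3 arrays of a group lay wholly above or below the controls in 19 members at 8 h (37.9% of all genes), 19 at 24 h (33%) and 18 at 48 h (35.7%), the 24 h arrays lay wholly to one side of the 8 h arrays in 19 (33.3%), and the 48 h arrays to one side of the 24 h arrays in 9 (24%). The shares called lie near those of all genes, and the results below are about individual members. The medians of the members' log2 fold changes were 0.05, 0.05 and 0.02 at 8, 24 and 48 h, against 0.02, 0.02 and 0.01 over all genes.

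**Figure D1:**
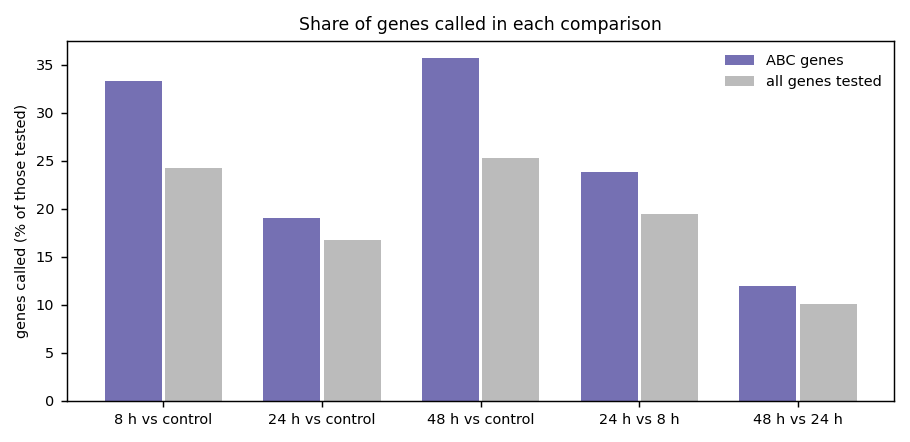
Bars give the percentage of genes called at an adjusted p under 0.05 in each of the 5 comparisons, for the 42 ABC genes and for all 18377 genes tested. The ABC share runs from 11.9% at 48 h against 24 h to 35.7% at 48 h against control, where 10.1% and 25.3% of all genes were called.

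Most changes were small. At least a 1.5-fold change was reached by 2 called members at 8 h (3.25% of all genes), 2 at 24 h (2.41%) and 3 at 48 h (3.74%), by 1 from 8 to 24 h (2.37%) and by 0 from 24 to 48 h (0.74%). Lower at all 3 times were ABCA1, ABCG1, ABCA12 and ABCC4, and higher at all 3 times were ABCB9 and ABCB10. ABCE1 alone was called higher at 1 time and lower at another. At no time were 21 members called against control, and their log2 fold changes lay between -0.10 and 0.20. The share of all genes with each of these patterns over time was not counted, so the patterns describe the members only.

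**Figure D2:**
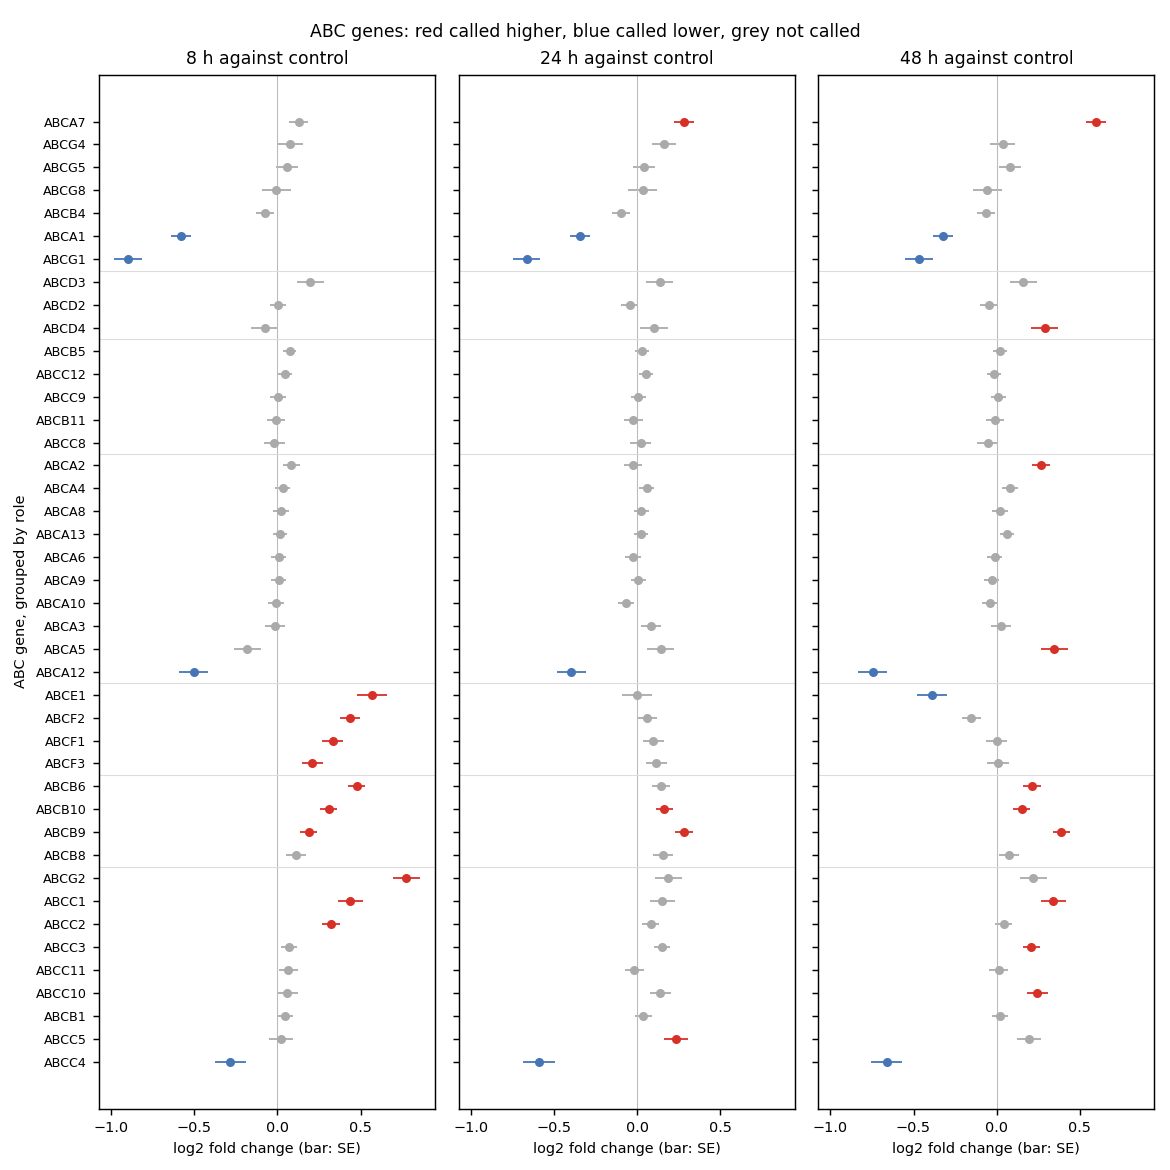
Points give the log2 fold change of each of the 42 ABC genes against control after 8, 24 and 48 h with methotrexate, bars give limma's standard error, and thin lines part the roles. Called genes are red (higher) or blue (lower): 10 and 4 at 8 h, 4 and 4 at 24 h, and 10 and 5 at 48 h, with ABCG1 farthest to the left at 8 h and ABCG2 farthest to the right.

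The stretches of DNA around the transcription starts of 6 members are shown because these members carry the main patterns described below and have a single start in the RefSeq promoter table. Each holds 300 bases of GRCh38.p14, 250 before the start and 50 from it, read 5′ to 3′ on the gene's strand. ABCA1 lies at chr9:104928106-104928405 (minus strand), ABCA7 at chr19:1039857-1040156 (plus), ABCC4 at chr13:95301402-95301701 (minus), ABCB6 at chr2:219218909-219219208 (minus), ABCE1 at chr4:145098061-145098360 (plus) and ABCF2 at chr7:151227156-151227455 (minus). Capitals mark matches, on either strand, to the antioxidant response element core (TGACNNNGC), the E-box (CACGTG), the cAMP response element (TGACGTCA), the GC box (GGGCGG), the CCAAT box (CCAAT) and the TATA box (TATAAA).
ABCA1: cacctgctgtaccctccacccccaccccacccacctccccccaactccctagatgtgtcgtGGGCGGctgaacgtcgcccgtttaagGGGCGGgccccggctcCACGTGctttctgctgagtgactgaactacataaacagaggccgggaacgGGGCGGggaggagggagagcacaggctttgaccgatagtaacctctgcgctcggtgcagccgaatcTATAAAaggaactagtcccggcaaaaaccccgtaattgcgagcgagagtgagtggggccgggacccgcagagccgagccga
ABCA7: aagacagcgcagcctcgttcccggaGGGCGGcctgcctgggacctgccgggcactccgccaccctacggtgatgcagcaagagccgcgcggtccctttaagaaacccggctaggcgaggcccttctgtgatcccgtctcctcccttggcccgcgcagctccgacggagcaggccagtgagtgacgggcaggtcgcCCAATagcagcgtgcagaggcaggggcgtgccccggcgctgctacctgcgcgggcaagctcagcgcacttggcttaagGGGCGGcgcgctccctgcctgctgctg
ABCC4: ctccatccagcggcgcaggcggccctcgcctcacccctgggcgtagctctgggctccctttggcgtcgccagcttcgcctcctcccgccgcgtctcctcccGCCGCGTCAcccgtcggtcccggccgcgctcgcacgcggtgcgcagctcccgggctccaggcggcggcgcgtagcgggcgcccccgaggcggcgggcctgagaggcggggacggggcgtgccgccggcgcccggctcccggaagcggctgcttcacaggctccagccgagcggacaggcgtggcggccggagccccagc
ABCB6: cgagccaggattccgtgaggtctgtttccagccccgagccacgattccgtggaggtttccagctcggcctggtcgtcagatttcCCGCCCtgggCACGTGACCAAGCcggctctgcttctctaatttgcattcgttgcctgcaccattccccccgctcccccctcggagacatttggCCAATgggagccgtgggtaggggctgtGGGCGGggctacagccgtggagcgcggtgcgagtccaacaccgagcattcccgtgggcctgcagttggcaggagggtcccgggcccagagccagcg
ABCE1: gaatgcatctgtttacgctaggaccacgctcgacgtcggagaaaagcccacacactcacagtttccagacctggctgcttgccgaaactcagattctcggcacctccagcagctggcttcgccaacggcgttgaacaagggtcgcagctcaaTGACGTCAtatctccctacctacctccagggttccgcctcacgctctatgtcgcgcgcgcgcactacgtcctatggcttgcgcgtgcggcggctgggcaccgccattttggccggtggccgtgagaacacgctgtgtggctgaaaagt
ABCF2: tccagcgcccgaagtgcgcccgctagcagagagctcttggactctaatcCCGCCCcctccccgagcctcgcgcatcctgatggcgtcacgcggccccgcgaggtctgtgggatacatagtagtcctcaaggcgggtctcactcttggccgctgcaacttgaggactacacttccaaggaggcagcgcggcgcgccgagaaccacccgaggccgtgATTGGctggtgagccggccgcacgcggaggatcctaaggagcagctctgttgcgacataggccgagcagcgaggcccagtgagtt

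In these windows ABCA1 held an E-box at position -147 from the start, 3 GC boxes and a TATA box at -31. ABCB6 held an E-box at -156 that overlaps an antioxidant response element core at -152, and ABCE1 held a cAMP response element at -98. ABCF2, ABCA7 and ABCB6 each held a CCAAT box, at -35, -55 and -73, and each held at least 1 GC box. ABCC4 held an antioxidant response element core at -149. The promoter table matched 34 of the 42 members, with 51 start windows in all, and ABCG2 had 5 of them. The antioxidant response element core was in 12 of the 51 windows (23.5%) and in 13.3% of all 35116 windows in the table. The E-box was in 17.6% of member windows against 7.26% of all, the GC box in 49% against 45%, the CCAAT box in 23.5% against 34.6%, the TATA box in 15.7% against 11.5%, and the cAMP response element in 1.96% against 1.85%. The 9 windows with an E-box came from 8 genes, as overlapping windows of ABCG2 each held 1. A site in overlapping windows can be counted more than once. A match is a run of letters and says nothing about whether a factor binds there.

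Of 9 members that export antifolates and other drugs, 3 rose and 1 fell at 8 h (44.4%, against 24.2% of all genes). At 24 h 1 rose and 1 fell (22.2% against 16.7%), and at 48 h 3 rose and 1 fell (44.4% against 25.3%). ABCG2, the breast cancer resistance protein, carries methotrexate and urate out of cells. Its control arrays read 0.12, 0.00 and -0.16, the 8 h arrays 0.90, 0.69 and 0.69, the 24 h arrays 0.14, 0.23 and 0.15, and the 48 h arrays 0.29, 0.27 and 0.07. All 3 arrays at 8 h lay above the other 9. ABCG2 rose 1.71-fold at 8 h (log2 fold change 0.78, SE 0.08, adjusted p = 1.80e-05) and then fell by 0.59 from 8 to 24 h (SE 0.08, adjusted p = 0.000236). It was not called at 24 h (0.19, SE 0.08, adjusted p = 0.153) or at 48 h (0.22, SE 0.08, adjusted p = 0.0674), where other settings passed the threshold: array weights (0.000572), the replicate number as a block (0.0214), and leaving out 48 h replicate 3 (0.0184), control replicate 1 (0.0332) or 8 h replicate 1 (0.0494). As these cultures were measured in bulk, fewer cells that express a gene and less RNA per cell cannot be told apart.

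ABCC1 and ABCC2, multidrug resistance proteins that export conjugates and methotrexate, also rose at 8 h. ABCC1 read 0.00, 0.05 and -0.17 on the control arrays, 0.54, 0.34 and 0.32 at 8 h, 0.06, 0.21 and 0.06 at 24 h, and 0.27, 0.37 and 0.26 at 48 h. It was higher by 0.44 at 8 h (SE 0.07, adjusted p = 0.000774) and by 0.34 at 48 h (SE 0.07, adjusted p = 0.00432), with all 6 of these arrays above the controls, and was not called at 24 h (0.15, SE 0.07, adjusted p = 0.214). Its drop of 0.29 from 8 to 24 h (adjusted p = 0.0150) was lost without 8 h replicate 1, 24 h replicate 1 or 24 h replicate 3 (adjusted p 0.0628 to 0.0662).

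ABCC2, which exports into the gut lumen and bile, read 0.00, 0.00 and 0.06 on the control arrays, 0.37, 0.33 and 0.32 at 8 h, 0.11, 0.00 and 0.19 at 24 h, and 0.02, 0.08 and 0.08 at 48 h. Only the 8 h arrays lay clear of the controls. The rise at 8 h was 0.32 (SE 0.05, adjusted p = 0.000510), followed by a fall of 0.24 to 24 h (SE 0.05, adjusted p = 0.00501), and at 48 h the difference from control was 0.04 (SE 0.05, adjusted p = 0.654).

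ABCC4, which exports cyclic nucleotides, nucleotide analogues and antifolates, moved the other way. Control arrays read 0.19, 0.00 and -0.04, 8 h arrays -0.04, -0.33 and -0.33, 24 h arrays -0.59, -0.40 and -0.63, and 48 h arrays -0.54, -0.54 and -0.76. The 24 and 48 h arrays were all below the controls, while 8 h replicate 1 read as low as control replicate 3. ABCC4 was 1.5-fold lower at 24 h (-0.59, SE 0.10, adjusted p = 0.000876) and 1.58-fold lower at 48 h (-0.66, SE 0.10, adjusted p = 0.000205), and its promoter is among those printed. At 8 h the difference was -0.28 (SE 0.10, adjusted p = 0.0484), a call that did not hold when 48 h replicate 1 or 2, 24 h replicate 1 or 3, 8 h replicate 2 or 3, or control replicate 1 or 2 was left out (0.0529 to 0.201) and with a robust prior (0.0510). The further drop of 0.31 from 8 to 24 h (adjusted p = 0.0397) did not hold when 24 h replicate 1 or 3, 8 h replicate 1 or control replicate 2 was left out (0.0538 to 0.167) and with each array centred (0.0543).

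ABCC3, on the blood side of enterocytes, and ABCC5, an exporter of cyclic nucleotides and antifolates, changed less. ABCC3 read 0.00, 0.03 and -0.10 on the control arrays, 0.10, 0.03 and 0.01 at 8 h, 0.14, 0.14 and 0.09 at 24 h, and 0.19, 0.14 and 0.22 at 48 h. It was called at 48 h (0.21, SE 0.05, adjusted p = 0.00674), and its differences at 8 h (0.07, adjusted p = 0.382) and 24 h (0.15, adjusted p = 0.0581) were not, the latter passing with array weights (0.0372) or without 48 h replicate 3 (0.0445). ABCC5 read 0.03, 0.00 and -0.21 on the control arrays, -0.02, -0.02 and -0.08 at 8 h, 0.09, 0.29 and 0.14 at 24 h, and 0.24, 0.09 and 0.07 at 48 h. The lowest of these 12 values is control replicate 3. Its call at 24 h (0.24, SE 0.07, adjusted p = 0.0457) did not hold when any 8 h or 24 h array, 48 h replicate 2, or control replicate 2 or 3 was left out (0.0502 to 0.165), with each array centred (0.0781) and with only these 2 groups fitted (0.0608). At 48 h the difference was 0.19 (SE 0.07, adjusted p = 0.0741), which passed with array weights (0.0460) and with the replicate block (0.0466).

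ABCC10, a further drug exporter, was higher at 48 h (0.25, SE 0.06, adjusted p = 0.0104). ABCB1, the P-glycoprotein that pumps many hydrophobic drugs, differed from control by 0.05, 0.04 and 0.02 at the 3 times (SE 0.05, adjusted p = 0.623, 0.709 and 0.843). ABCC11 was likewise not called, at 0.07, -0.02 and 0.01 (SE 0.06, adjusted p = 0.520, 0.906 and 0.926). Without a level it is not known whether the probes of these genes were above background.

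**Figure D3:**
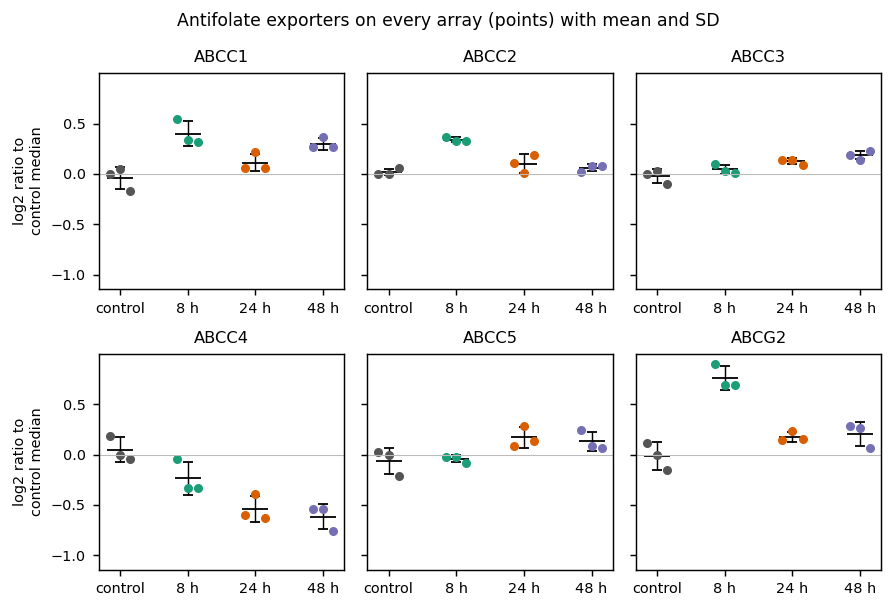
Points give the log2 ratio to the control median on each of the 12 arrays for ABCC1 to ABCC5 and ABCG2, by group, with the group mean (horizontal mark) and SD (bar, n = 3). ABCG2 stands highest at 8 h, at 0.69 to 0.90, and ABCC4 lies lowest at 48 h, at -0.76 to -0.54.

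The carriers that bring folates and methotrexate into cells or mitochondria were set beside the exporters. Of 13 measured, 3 rose and 1 fell at 8 h (30.8%, against 24.2% of all genes). At 24 h 0 were called (against 16.7%), and at 48 h 2 rose and 1 fell (23.1% against 25.3%). The proton-coupled folate transporter SLC46A1 rose by 0.50 at 8 h (SE 0.06), the folate receptor FOLR1 fell by 0.84 at 8 h and was higher by 0.57 at 48 h (SE 0.06), and the mitochondrial folate carrier SLC25A32 rose by 0.45 at 8 h and was lower by 0.46 at 48 h (-0.46, SE 0.08).

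Among 7 members that export sterols and phospholipids, 0 rose and 2 fell at 8 h (28.6%, against 24.2% of all genes). At 24 h and again at 48 h 1 rose and 2 fell (42.9%, against 16.7% and 25.3%). ABCG1, which passes cholesterol to high-density lipoprotein, had the largest change of the 42 members. It read 0.00, 0.06 and -0.24 on the control arrays, -1.04, -0.84 and -0.99 at 8 h, -0.70, -0.69 and -0.79 at 24 h, and -0.56, -0.62 and -0.40 at 48 h. All 9 treated arrays lay below the 3 controls. ABCG1 was 1.86-fold lower at 8 h (-0.90, SE 0.08, adjusted p = 5.82e-06), 1.58-fold lower at 24 h (-0.66, SE 0.08, adjusted p = 0.000104) and 1.38-fold lower at 48 h (-0.47, SE 0.08, adjusted p = 0.000950). The differences from 8 to 24 h (0.23, adjusted p = 0.0679) and from 24 to 48 h (0.20, adjusted p = 0.174) were not called, and the former passed without control replicate 3, 8 h replicate 2 or 48 h replicate 3 (0.0307 to 0.0455), with array weights (0.0440) and with only these 2 groups fitted (0.0250).

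ABCA1, which loads cholesterol and phospholipid onto apolipoprotein A-I, followed a like course. Control arrays read 0.04, 0.00 and -0.12, 8 h arrays -0.56, -0.55 and -0.71, 24 h arrays -0.37, -0.33 and -0.41, and 48 h arrays -0.27, -0.34 and -0.42. Again all 9 treated arrays were below the controls. ABCA1 was lower by 0.58 at 8 h (-0.58, SE 0.06, adjusted p = 1.81e-05), and lower by 0.34 at 24 h (-0.34, SE 0.06, adjusted p = 0.00166) and 0.32 at 48 h (-0.32, SE 0.06, adjusted p = 0.00162). It regained 0.24 from 8 to 24 h (adjusted p = 0.0148), a call lost without 8 h replicate 3 (0.0740) or 24 h replicate 2 (0.0519).

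ABCA7, a close relative of ABCA1 that moves phospholipids, rose instead. It read -0.01, 0.00 and 0.02 on the control arrays, 0.14, 0.21 and 0.05 at 8 h, 0.34, 0.21 and 0.31 at 24 h, and 0.52, 0.59 and 0.69 at 48 h. The 48 h arrays lay above all the others and every treated array lay above the controls. ABCA7 was 1.22-fold higher at 24 h (0.28, SE 0.06, adjusted p = 0.00432) and 1.51-fold higher at 48 h (0.60, SE 0.06, adjusted p = 7.41e-06), with a rise of 0.31 from 24 to 48 h (SE 0.06, adjusted p = 0.00418). At 8 h the difference was 0.13 (SE 0.06, adjusted p = 0.141), which passed with array weights (0.0331). The windows around the starts of ABCA1 and ABCA7, both printed, shared only the GC box among the motifs searched. ABCB4, ABCG4, ABCG5 and ABCG8, of bile and sterol export, were not called in any comparison. With array weights ABCG4 passed at 24 h against control (adjusted p = 0.00995) and from 24 to 48 h (0.00546), and ABCG8 at 48 h against control (0.0314) and from 24 to 48 h (0.00347).

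ABCA1 and ABCG1 are textbook targets of the liver X receptors (LXR), which sense oxysterols, so other LXR targets and genes of sterol handling were examined. Of 21 measured, 2 rose and 7 fell at 8 h (42.9%, against 24.2% of all genes). At 24 h 0 rose and 6 fell (28.6% against 16.7%), and at 48 h 2 rose and 5 fell (33.3% against 25.3%). The list median was -0.03, -0.09 and -0.01 at the 3 times. SCD, a fatty acid desaturase, was lower by 0.87 at 8 h (-0.87, SE 0.06), 0.90 at 24 h (-0.90, SE 0.06) and 0.50 at 48 h (-0.50, SE 0.06). MYLIP, the ubiquitin ligase that marks the LDL receptor for breakdown, fell by 0.64, 0.54 and 0.43 (SE 0.05). SREBF1, the transcription factor of fatty acid synthesis, fell by 0.54, 0.45 and 0.40 (SE 0.06). Other genes of the list went up, with a largest log2 fold change of 0.53 at 8 h and 0.43 at 48 h. NR1H3, which encodes LXR alpha and was singled out after its values were seen, differed from control by 0.11, 0.09 and -0.19 (SE 0.09). It was not called (adjusted p = 0.479, 0.621 and 0.145). Whether the activity of LXR changed was not tested.

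Of 10 other ABCA members, 0 rose and 1 fell at 8 h and at 24 h (10%, against 24.2% and 16.7% of all genes). At 48 h 2 rose and 1 fell (30% against 25.3%). ABCA12 is best known for loading lipid into the lamellar granules of skin. Its control arrays read 0.00, 0.02 and -0.09, 8 h arrays -0.43, -0.60 and -0.54, 24 h arrays -0.48, -0.26 and -0.51, and 48 h arrays -0.64, -0.70 and -0.95. All treated arrays lay below the controls, with 48 h replicate 3 lowest. ABCA12 was 1.42-fold lower at 8 h (-0.50, SE 0.09, adjusted p = 0.000852), 1.31-fold lower at 24 h (-0.39, SE 0.09, adjusted p = 0.00684) and 1.68-fold lower at 48 h (-0.75, SE 0.09, adjusted p = 3.51e-05). The drop of 0.35 from 24 to 48 h (adjusted p = 0.0215) was lost without 24 h replicate 2 (0.0797) and with only these 2 groups fitted (0.0949).

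ABCA5, a carrier of lysosomes and late endosomes, read 0.00, 0.03 and -0.03 on the control arrays, -0.19, -0.31 and -0.05 at 8 h, 0.05, 0.23 and 0.15 at 24 h, and 0.35, 0.50 and 0.19 at 48 h. Its 8 h arrays lay below the controls and its 24 and 48 h arrays above them. It was called at 48 h (0.35, SE 0.08, adjusted p = 0.00623) but not at 8 h (-0.18, SE 0.08, adjusted p = 0.138), which passed with array weights (0.0265), or at 24 h (0.14, SE 0.08, adjusted p = 0.297). The rise of 0.32 from 8 to 24 h (adjusted p = 0.0123) was lost without 8 h replicate 2 (0.0627) or 24 h replicate 2 (0.0508). ABCA5 neighbours ABCA10, ABCA6, ABCA9 and ABCA8 in the gene table, and those 4 genes were not called in any comparison. ABCA2, a carrier of late endosomes in neural cells, was higher by 0.27 at 48 h (SE 0.05, adjusted p = 0.00215) and by 0.29 from 24 to 48 h (SE 0.05, adjusted p = 0.00381).

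**Figure D4:**
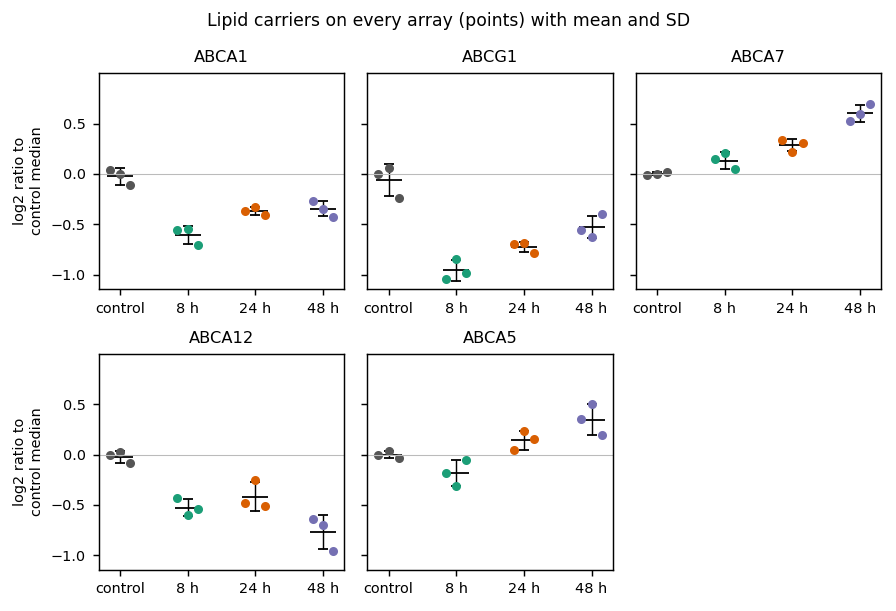
Points give the log2 ratio to the control median on each of the 12 arrays for the lipid carriers ABCA1, ABCG1, ABCA7, ABCA12 and ABCA5, by group, with the group mean (horizontal mark) and SD (bar, n = 3). ABCG1 and ABCA1 are lowest at 8 h, at -1.04 to -0.84 and -0.71 to -0.55, while ABCA7 is highest at 48 h, at 0.52 to 0.69.

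Of 4 members of mitochondria and lysosomes, 3 rose at 8 h, 2 at 24 h and 3 at 48 h, and 0 fell. Over all genes 12.1%, 8.69% and 13% rose at these times. ABCB6, linked to the movement of porphyrins, read 0.16, -0.01 and 0.00 on the control arrays, 0.59, 0.48 and 0.52 at 8 h, 0.17, 0.19 and 0.23 at 24 h, and 0.25, 0.24 and 0.30 at 48 h. All treated arrays lay above the controls and the 8 h arrays above the rest. It was 1.39-fold higher at 8 h (0.48, SE 0.05, adjusted p = 2.90e-05) and fell by 0.33 to 24 h (SE 0.05, adjusted p = 0.000700). At 48 h it was higher by 0.21 (SE 0.05, adjusted p = 0.0102), no longer called when control replicate 2 was left out (0.0527), and at 24 h the difference was 0.15 (SE 0.05, adjusted p = 0.0877), which passed without control replicate 1 (0.0249) and with array weights (0.0162).

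ABCB9, a lysosomal peptide carrier related to the antigen peptide transporters, read 0.01, -0.02 and 0.00 on the control arrays, 0.24, 0.18 and 0.13 at 8 h, 0.27, 0.27 and 0.31 at 24 h, and 0.35, 0.32 and 0.50 at 48 h. The 3 groups of treated arrays did not overlap each other or the controls. ABCB9 was higher by 0.19 at 8 h (SE 0.05, adjusted p = 0.0215), 0.28 at 24 h (SE 0.05, adjusted p = 0.00252) and 0.39 at 48 h (SE 0.05, adjusted p = 0.000143), while the steps from 8 to 24 h (0.10, adjusted p = 0.279) and from 24 to 48 h (0.11, adjusted p = 0.287) were not called. At 8 h the call did not hold when 8 h replicate 1 or 2, or control replicate 2 or 3, was left out (0.0519 to 0.0808).

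ABCB10, an inner mitochondrial membrane protein needed for heme synthesis, was higher by 0.31 at 8 h (SE 0.05, adjusted p = 0.000581), 0.16 at 24 h (SE 0.05, adjusted p = 0.0439) and 0.15 at 48 h (SE 0.05, adjusted p = 0.0439). The 24 h call was lost without any control or 24 h array, 8 h replicate 2, or 48 h replicate 1 or 2 (0.0533 to 0.136), with each array centred (0.0543) and with the replicate block (0.0551). The 48 h call did not hold when any 24 h or 48 h array, 8 h replicate 2, or control replicate 1 or 3 was left out (0.0539 to 0.131), with only these 2 groups fitted (0.0767), or with the replicate block (0.0556). ABCB8, a further inner membrane member, was not called at 8, 24 or 48 h as the mean of its 3 probe sets (0.11, 0.16 and 0.07, SE 0.06). With array weights that mean passed at 8 h (adjusted p = 0.0497), at 24 h (0.00466) and from 24 to 48 h (0.00228), and leaving out 48 h replicate 3 it passed at 24 h (0.0283). Its probe sets disagreed: tested apart, 1 of them was higher by 0.24 at 8 h (SE 0.06, adjusted p = 0.0122) and by 0.28 at 24 h (SE 0.06, adjusted p = 0.00664) and fell by 0.29 from 24 to 48 h (SE 0.06, adjusted p = 0.00929), while the other two differed by 0.03 and 0.07 at 8 h and were not called. Of 21 iron-sulfur and heme genes measured, 3 rose and 2 fell at 8 h (23.8%, against 24.2% of all genes). At 24 h 1 rose and 0 fell (4.76% against 16.7%), and at 48 h 2 rose and 5 fell (33.3% against 25.3%). The mitochondrial iron importer SLC25A37 was higher by 0.48 (SE 0.06) at 48 h, the chaperone HSPA9 lower by 0.39 (-0.39, SE 0.05) and the heme synthesis enzyme UROS lower by 0.37 (-0.37, SE 0.06).

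All 4 members without a membrane part rose at 8 h, 0 were called at 24 h, and 1 fell at 48 h. Over all genes 12.1% rose at 8 h, 16.7% were called at 24 h and 12.3% fell at 48 h. ABCE1 splits ribosomes into subunits after translation ends. It read -0.01, 0.04 and 0.00 on the control arrays, 0.67, 0.49 and 0.57 at 8 h, -0.04, 0.16 and -0.09 at 24 h, and -0.28, -0.26 and -0.60 at 48 h. The 8 h arrays lay above and the 48 h arrays below all others, and the 24 h arrays spanned the controls. ABCE1 was 1.48-fold higher at 8 h (0.57, SE 0.09, adjusted p = 0.000458) and 1.31-fold lower at 48 h (-0.39, SE 0.09, adjusted p = 0.00579). It fell by 0.57 from 8 to 24 h (SE 0.09, adjusted p = 0.000613) and by 0.39 from 24 to 48 h (SE 0.09, adjusted p = 0.0151), and the latter was lost without 24 h replicate 2 (0.0574) and with only these 2 groups fitted (0.0831).

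ABCF2 read 0.00, -0.03 and 0.02 on the control arrays, 0.38, 0.52 and 0.40 at 8 h, 0.06, -0.03 and 0.14 at 24 h, and -0.21, -0.19 and -0.07 at 48 h. It had the same order of groups as ABCE1, with the 8 h arrays above and the 48 h arrays below the rest. ABCF2 rose 1.35-fold at 8 h (0.44, SE 0.06, adjusted p = 0.000129) and fell by 0.38 to 24 h (SE 0.06, adjusted p = 0.000550). At 48 h it was not called against control (-0.15, SE 0.06, adjusted p = 0.0793), and passed with each array centred (0.0451), with array weights (0.00300) and without 48 h replicate 3 (0.0322). The drop of 0.21 from 24 to 48 h (adjusted p = 0.0365) did not hold when 48 h replicate 1 or 2, 24 h replicate 1 or 3, 8 h replicate 3, or control replicate 1 or 2 was left out (0.0507 to 0.157) and with only these 2 groups fitted (0.113).

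ABCF1, which binds the initiation factor eIF2, read 0.08, 0.00 and -0.04 on the control arrays, 0.48, 0.29 and 0.27 at 8 h, 0.10, 0.06 and 0.18 at 24 h, and 0.02, -0.04 and 0.06 at 48 h. Its 8 h arrays lay above all the others. It rose by 0.33 at 8 h (SE 0.06, adjusted p = 0.00151) and fell by 0.24 to 24 h (SE 0.06, adjusted p = 0.0163), the fall being lost without 8 h replicate 1 or 24 h replicate 1 or 2 (0.0564 to 0.0664). The 3 probe sets of ABCF1 read nearly alike on every array, with a difference of 0.33 at 8 h in each, and are not separate evidence. ABCF3 rose by 0.21 at 8 h (SE 0.07, adjusted p = 0.0329), but not when any control array, or 8 h replicate 1 or 2, was left out (0.0544 to 0.136).

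These proteins work among those of ribosome recycling, termination and the GCN2 pathway. Of 23 such genes, 5 rose and 2 fell at 8 h (30.4%, against 24.2% of all genes). At 24 h 0 rose and 4 fell (17.4% against 16.7%), and at 48 h 1 rose and 9 fell (43.5% against 25.3%). GCN1, which senses stalled ribosomes, rose by 0.53 (SE 0.06) and EIF2S1, the alpha subunit of eIF2, by 0.41 (SE 0.05) at 8 h. IMPACT, an inhibitor of GCN2 signalling, was lower at all 3 times, by 0.80 at 48 h (-0.80, SE 0.09).

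**Figure D5:**
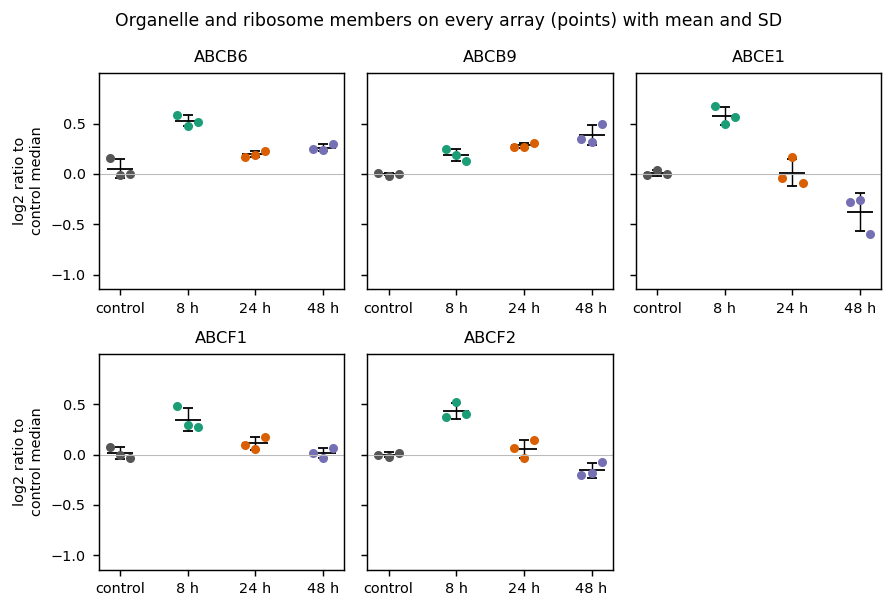
Points give the log2 ratio to the control median on each of the 12 arrays for ABCB6, ABCB9, ABCE1, ABCF1 and ABCF2, by group, with the group mean (horizontal mark) and SD (bar, n = 3). ABCE1 runs from 0.49 to 0.67 at 8 h down to -0.60 to -0.26 at 48 h, and ABCB9 reaches 0.32 to 0.50 at 48 h.

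Of the 3 members of peroxisomes and cobalamin transport, ABCD4, which helps cobalamin leave lysosomes, was higher at 48 h (0.29, SE 0.08, adjusted p = 0.0191), a call lost without control replicate 2 (0.0720) or 48 h replicate 3 (0.0659). The peroxisomal fatty acid carriers ABCD2 and ABCD3 were not called, with ABCD3 at 0.20 after 8 h (SE 0.08, adjusted p = 0.101) and 0.16 after 48 h (SE 0.08, adjusted p = 0.189); without 48 h replicate 3 it passed at both times (0.0476 and 0.0419), and with array weights at 48 h (0.00361). Of 23 genes of peroxisome assembly, fatty acid oxidation and cobalamin handling, 5 rose and 6 fell at 8 h (47.8%, all genes 24.2%). At 24 h 3 rose and 4 fell (30.4% against 16.7%), and at 48 h 3 rose and 8 fell (47.8% against 25.3%). LMBRD1, the lysosomal partner of ABCD4, fell by 0.51 at 8 h (SE 0.11), PHYH, of phytanic acid oxidation, by 0.47 at 8 h (SE 0.07), and PEX11A, of peroxisome division, by 0.41 at 48 h (SE 0.06).

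The remaining plasma membrane members, ABCB5, ABCB11, ABCC8, ABCC9 and ABCC12, were not called in any of the 5 comparisons, and their log2 fold changes against control lay between -0.05 and 0.07. With array weights ABCC8 passed from 24 to 48 h (adjusted p = 0.0335). ABCC8 and ABCC9 are regulatory subunits of ATP-sensitive potassium channels, and of the pore subunits KCNJ8 and KCNJ11 0 were called. ABCB11 exports bile salts in the liver. A list of 19 genes mixed bile acid transport, signalling and conjugation with glutathione genes. Of these, 4 rose and 3 fell at 8 h (36.8%, against 24.2% of all genes). At 24 h 7 rose and 3 fell (52.6% against 16.7%), and at 48 h 4 rose and 2 fell (31.6% against 25.3%). FGF19, a hormone that the ileum makes in response to bile acids, was 2.71-fold lower at 8 h (-1.44, SE 0.06), GCLM, of glutathione synthesis, was 1.93-fold higher at 8 h (0.95, SE 0.11), and GSTM4, a glutathione transferase, 1.91-fold higher at 48 h (0.93, SE 0.07).

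Of 19 transcription factors and receptors known to act on ABC genes, 2 rose and 6 fell at 8 h (42.1%, all genes 24.2%). At 24 h 3 rose and 4 fell (36.8% against 16.7%), and at 48 h 3 rose and 5 fell (42.1% against 25.3%). SREBF1, given above with the LXR targets, had the largest fall of this list at 8 h, by 0.54. The vitamin D receptor VDR rose by 0.73 at 8 h (SE 0.05) and was higher by 0.45 at 24 h and at 48 h. The fatty acid receptor PPARD differed by 0.04 at 8 h (SE 0.06, adjusted p = 0.725) and was higher by 0.43 at 24 h and 0.48 at 48 h (SE 0.06).

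The 3 ABC proteins whose symbols follow another scheme were measured too. CFTR, the chloride channel of epithelia and a relative of the ABCC proteins, read 0.01, 0.00 and 0.00 on the control arrays, -0.90, -1.26 and -1.19 at 8 h, -1.64, -1.45 and -1.54 at 24 h, and -1.49, -1.48 and -1.77 at 48 h. All treated arrays lay far below the controls, and CFTR was 2.17-fold lower at 8 h (-1.12, SE 0.10, adjusted p = 3.43e-06), 2.92-fold lower at 24 h (-1.55, SE 0.10, adjusted p = 2.94e-07) and 2.99-fold lower at 48 h (-1.58, SE 0.10, adjusted p = 1.35e-07). TAP1, which with TAP2 carries peptides to MHC class I molecules, was lower by 0.77 at 8 h (-0.77, SE 0.08, adjusted p = 1.94e-05) and 0.54 at 24 h (-0.54, SE 0.08, adjusted p = 0.000529) and was not called at 48 h (-0.13, SE 0.08, adjusted p = 0.292). TAP2 differed from control by -0.11, -0.06 and 0.11 (SE 0.06) and was not called (adjusted p = 0.280, 0.620 and 0.268).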

How the data were processed

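RNA from HT29 cells was hybridised to Affymetrix human gene arrays, 12 in all. The authors deposited log2 values, 1 per probe set and array. RMA and the build hg19 are named, without versions, per the submitters' processing notes. Every one of the 28869 probe sets had a control median of 0 as deposited. No label or header describes this centring, log base 2 is assumed because RMA gives it, and signal over background is unknown, so no filter on low values was possible. The number of arrays limits the precision.

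Probe sets with 1 gene (19310) were averaged by gene, and those with several (1752) or none named (7807) were not used. Groups came from the sample titles. All 12 arrays entered 1 linear model with a mean per group, fitted with limma 3.58.1 in R 4.3.3 (lmFit, contrasts.fit, eBayes; 8 residual and 4.71 prior degrees of freedom), and p-values were two-sided and adjusted over all 18377 genes. The fit was tested on simulated data. Figures used matplotlib 3.10.9 in Python 3.11.15. The members, gene lists, motifs and tests were chosen with earlier results of these data known. Values on every array are given for the 14 members with the largest called change against control whose 3 values lay outside the controls, and for ABCC1 to ABCC5 and ABCG2. Up to 3 called genes are named per list, and TAP1, TAP2 and CFTR whatever their p. NR1H3, KCNJ8 and KCNJ11 are named outside this rule. Alternatives were array centring, replicate block, array weights, robust prior, fits of 2 groups, separate probe sets, genes with 1 probe set, stricter thresholds and leaving out each array.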

Additional observations from a re-analysis of the deposited data

Results flagged for a closer look

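The difference from control changed between times in 13 members, by limma's test of one treated group against the other. Such changes were called in 23.8% of members from 8 to 24 h (19.4% of all genes) and 11.9% from 24 to 48 h (10.1%). These shares lie near each other, and the share of all genes called in either step is not given, so the results concern single members. From 8 to 24 h, ABCG2 changed by -0.59, ABCE1 by -0.57, ABCF2 by -0.38, ABCB6 by -0.33, ABCC4 by -0.31, ABCC1 by -0.29, and ABCC2 and ABCF1 by -0.24 each, while ABCA1 changed by 0.24 and ABCA5 by 0.32. All of these but ABCC4, ABCA1 and ABCA5 had been called higher than control at 8 h. The same 8 h arrays enter both comparisons, so a call at 8 h and the change after it are not independent. From 24 to 48 h, ABCE1 changed by -0.39, ABCA12 by -0.35 and ABCF2 by -0.21, while ABCA7 changed by 0.31 and ABCA2 by 0.29. The calls of ABCC1, ABCC4, ABCA1, ABCA5 and ABCF1 from 8 to 24 h, and of ABCE1, ABCA12 and ABCF2 from 24 to 48 h, were lost under 1 or more of the left-out arrays, as given with each gene.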

How the results depend on the processing

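Of 3800 values of single members under the alternatives, 0 reversed, 81 lost their call (70 of them without 1 array) and 53 gained it (25 of them with array weights, which rest the 48 h values mostly on replicate 2, weight 6.52 against 0.199 for replicate 3). Without each array in turn, the members called ran from 11 to 15 at 8 h, 6 to 10 at 24 h and 13 to 16 at 48 h against control, 7 to 13 at 24 h against 8 h, and 3 to 6 at 48 h against 24 h, the lowest without 24 h replicate 2. By the F test they ran from 17 to 21. With array weights, 13 members were called at 24 h against control (8 otherwise) and 13 at 48 h against 24 h (5 otherwise), and 2 in the latter with only these 2 groups fitted. At an adjusted p under 0.01, 5 members were called at 24 h against 8 h and 2 at 48 h against 24 h. With at least a 1.5-fold change, 2, 2 and 3 were called at 8, 24 and 48 h against control, 1 at 24 h against 8 h, 0 at 48 h against 24 h, and 7 by the F test. Shares of all genes are not given for the left-out arrays, array weights, fits of 2 groups or the stricter p. They are also not given for the F test with a 1.5-fold change. Counts under these settings therefore describe the members only, and a shift may be shared by all genes.

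With the replicate number as a block, 14, 7 and 16 members were called at 8, 24 and 48 h against control, 11 at 24 h against 8 h and 5 at 48 h against 24 h. Shares of all genes with the block are not given. ABCB10 lost its calls at 24 h (0.0551) and 48 h (0.0556), and ABCC5 at 48 h (0.0466) and from 8 to 24 h (0.0376) and ABCG2 at 48 h (0.0214) gained theirs. Deviations of same-numbered arrays correlated between -0.45 and 0.47 over 18 pairs, 11 of them over 0.1, and 6 of 12 arrays correlated best with their own number, which does not settle whether the numbers pair the arrays. The labels name no shared culture or day, so the block was kept as an alternative.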

Other observations

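Of the ABC pseudogenes, ABCA11P was lower at 8 h (-0.36, SE 0.09, adjusted p = 0.00805) and at 48 h (-0.25, SE 0.09, adjusted p = 0.0479), by the same limma fit. It read 0.10, 0.00 and -0.15 on the control arrays, -0.29, -0.45 and -0.38 at 8 h, and -0.10, -0.24 and -0.47 at 48 h, where the groups overlap. ABCA15P and ABCC13 were not called against control.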
